A study of Eucalyptus grandis and Eucalyptus globulus with 10 samples.

Results

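Of the 21413 features read on a Eucalyptus expression array, 163 (0.761%) were at least 16-fold, or 4 log2 units, higher in differentiating xylem than in leaf blade of the same tree in both trees of 1 Eucalyptus grandis clone. A feature is a set of probe pairs for 1 transcript, and all 163 had the full 9 pairs. They were chosen by the xylem minus leaf differences of the array values of E. grandis clone A, so that clone's levels and tissue differences are a description, without a test. The 6 xylem arrays of other trees took no part in the choice, and every difference tested below is between them.

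The samples were 10 total RNA preparations from field-grown trees that were 4 years old, each read on a separate 1-colour array (Cy3). They formed 5 groups of 2 ramets, a ramet being 1 tree of a clone: xylem of E. globulus clone A, E. globulus clone B, E. grandis clone B and E. grandis clone A, and leaf blade of E. grandis clone A. Each group is thus 1 genotype, clone letters are not shared between the species, and leaf is represented by 1 genotype of 1 species. Per the labels' protocols, the xylem came from scraping stems freed of bark, and the mature leaf blades lacked their central vein. The protocol text speaks of unrelated lines with 2 clones each where the titles speak of clones with 2 ramets.

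Differentiating xylem is the layer inside the cambium in which young fibres and vessels lengthen, lay down secondary walls of cellulose, xylan and lignin, and then die. Its RNA is known to be rich in transcripts for cellulose synthases, lignin enzymes and arabinogalactan proteins of the wall, whereas a mature leaf blade is dominated by transcripts for photosynthesis. The files used here do not pair the feature IDs with genes, and the RefSeq gene table of E. grandis holds none of these IDs. No gene is therefore named, the tissues could not be checked against marker genes, and no probe or transcript sequence can be shown.

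The arrays were alike in overall brightness, with median RMA expression values (a summary of probe brightness) of 219 to 234 units. A deposited value table of the series holds the same numbers as the per-array files, but 9 of its 10 columns carry the values of an array file that belongs to another sample. Its columns follow the order of the array numbers in the files, from the lowest to the highest. As the table is named, the ramets of E. globulus clones A and B correlate across features at only 0.748 and 0.659, and each of these groups pairs a leaf file with a xylem file. In the per-array files the same ramets correlated at 0.949 and 0.978. For E. grandis clone A leaf the order was the other way, with 0.978 in the table as named, where both columns hold E. globulus clone B xylem files, and 0.906 in the per-array files. With the table as named 0 transcripts meet the rule. All results below come from the per-array files, as the deposit assigns them to samples.

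In the trees that chose them, the 163 transcripts differed between tissues by a median of 5.02 log2 units (32.4-fold) in ramet 1 and 5.18 log2 units (36.2-fold) in ramet 2. The differences ran from 4.01 to 7.54 in ramet 1 and from 4.04 to 7.64 in ramet 2. Both trees reached 5 log2 units for 64 of the transcripts and 6 log2 units for 19. The difference was the larger in ramet 2 for 103 transcripts, and the trees were more than 1 log2 unit apart for 26. In bulk tissue, a larger share of cells that make a transcript and more of its RNA per cell cannot be told apart.

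LYPTUS00S00014831 had the largest difference, with log2 values of 14.27 and 13.91 in xylem of ramets 1 and 2, against 6.73 and 6.26 in their leaves. LYPTUS00S00016894 came next, at 14.74 and 14.84 in xylem, against 7.23 and 7.37 in leaf. For these transcripts the leaf values lay below the median of all features and the E. grandis clone A xylem values among the brightest 1%. At the limit of the rule, the smaller of the 2 differences was 4.01 for LYPTUS00S00002557 and 4.02 for LYPTUS00S00002412, just inside. Just outside it were LYPTUS00S00008716 (11.34 in xylem against 7.34 in leaf of ramet 1) and LYPTUS00S00000023 (12.08 against 8.08), both under 4 log2 units before rounding. A further 59 features reached 4 log2 units in ramet 1 only and 67 in ramet 2 only.

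In leaf, most of the transcripts were dim but not uniformly so. Their mean over the leaf arrays had a median of 7.07 and ran from 5.41 to 10.43. On both leaf arrays 103 of the 163 were below the median of all features, 31 were below it on 1 array, and 29 were above it on both. None of the 163 was above the 90th percentile on both leaf arrays. The 2 blocks of the leaf array of ramet 1 disagreed more than those of the other arrays, for these transcripts and for all features. The SD of the block difference was 0.743 for the 163 and 0.587 for all features there, and on the remaining 9 arrays 0.215 to 0.369 for the 163 and 0.285 to 0.364 for all features. The part of this in the choice of members was not tested.

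The high level in xylem held in the other clones. On the 2 arrays of E. globulus clone A, 147 and 133 of the 163 were above the array's 90th percentile, and 142 and 123 on those of E. globulus clone B. Of the E. grandis clone B arrays the same was true of 143 and 129, and of the clone A xylem arrays that chose them, 161 and 157. On the leaf arrays 3 and 0 transcripts were that bright. Above the 99th percentile were 48 to 58 of the transcripts on each of the 6 xylem arrays outside the choice (29.4% to 35.6%), and 35 of the 163 were among the 100 features brightest over those arrays.

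**Figure D1:**
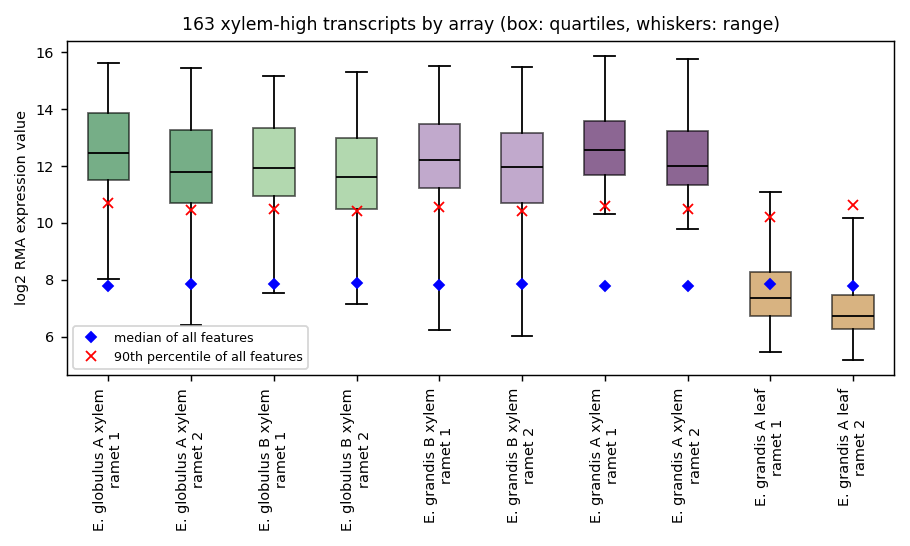
Log2 RMA expression values of the 163 transcripts on each of the 10 arrays. Boxes show the quartiles with the median as a line, whiskers the full range, blue diamonds the median of all features and red crosses their 90th percentile. On all 8 xylem arrays the box lies above the cross, and on both leaf arrays below it.

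By array, the median of the transcripts was 12.45 and 11.79 in ramets 1 and 2 of E. globulus clone A, and 11.93 and 11.61 in E. globulus clone B. It was 12.23 and 11.98 in E. grandis clone B and 12.55 and 12.02 in E. grandis clone A xylem, against 7.36 and 6.75 in leaf. The medians of all features lay between 7.78 and 7.87 on every array. Xylem and leaf medians thus lay far apart. Among the xylem groups, both medians of E. globulus clone B were below those of the E. grandis clones, and the other groups overlapped. The mean over the 6 arrays outside the choice had a median of 11.99 over the transcripts, against 7.84 over all features, and it ran from 6.89 to 15.24.

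**Figure D2:**
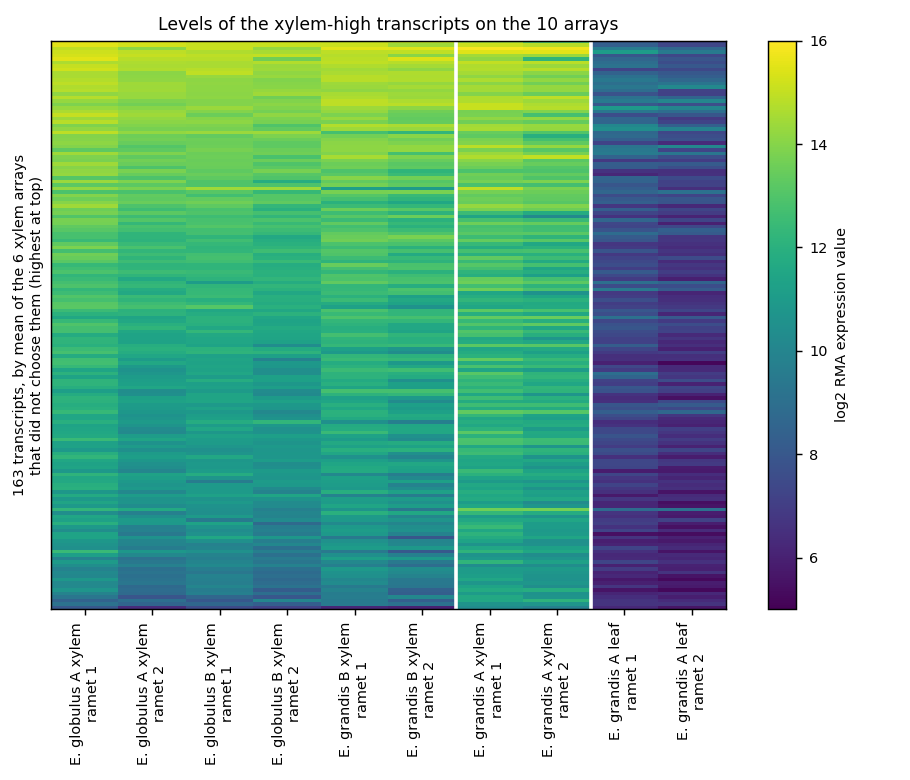
Log2 RMA expression values of the 163 transcripts (rows, sorted by their mean over the 6 xylem arrays that did not choose them) on the 10 arrays (columns). White lines set apart the E. grandis clone A xylem and leaf arrays that chose the transcripts. Rows run from yellow to blue on the 8 xylem arrays, and the leaf columns are mostly dark.

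Set against the mean of the leaf arrays, the transcripts were a median of 4.91 log2 units higher in E. globulus clone A, 4.54 in E. globulus clone B and 4.90 in E. grandis clone B. In E. grandis clone A xylem the same measure was 5.07. The 4 values share the leaf arrays, which were low by choice, so they are given side by side and not tested. A clone mean 4 or more log2 units above leaf was found for 127 of the 163 (77.9%) in E. globulus clone A, 114 (69.9%) in E. globulus clone B and 127 (77.9%) in E. grandis clone B. Over all features 1.13%, 0.808% and 0.948% reached that difference in these clones, from which nothing is read because leaf took part in the choice. Both ramets were that far above the leaf mean for 113, 97 and 115 of the transcripts.

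Nearly all of the rest were also above the leaf mean in the other clones, but by less. Leaf was sampled in E. grandis clone A only, so tissue and genotype cannot be told apart in these differences. At least 2 log2 units were reached by 162 transcripts in E. globulus clone A, 159 in E. globulus clone B and 161 in E. grandis clone B. In all 3 clones at once, 4 log2 units were held by 98 transcripts, while 23 held them in 2 clones, 28 in 1 and 14 in none. For 162 of the 163 transcripts each of the 6 arrays was above both leaf arrays, as was so for 19.1% of all features. The counts are also given by the size of the difference in the clone that chose them. Both measures use the same leaf arrays, so part of the contrast is built in and it is not tested. Of the 64 with 5 or more log2 units in both trees, 52 (81.2%) kept 4 in all 3 other clones, and of the 59 whose smaller difference was under 4.5, 23 (39%) did.

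The arrays were split here into 2 series at the largest gap in their array numbers, called earlier (lower numbers) and later (higher numbers). The later series held the leaf arrays, E. grandis clone A xylem ramet 1 and clone B ramet 2. All other xylem arrays were in the earlier one. What the numbers stand for, and whether they follow time, is not given in the sources used here. Within the later series, xylem minus the leaf mean had a median of 5.28 in clone A ramet 1 and 4.66 in clone B ramet 2. Xylem arrays of the earlier series had medians of 4.32 to 5.29. Clone B ramet 2, the 1 array outside the choice from the series of the leaf arrays, thus lay within the range of the others.

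In 4 transcripts, singled out after their values were seen, the difference from leaf was under 2 log2 units in at least 1 other clone. LYPTUS00S00016714 was at 8.02 and 6.40 in E. globulus clone A, 7.53 and 7.14 in E. globulus clone B, and 6.22 and 6.03 in E. grandis clone B. Clone A xylem of E. grandis had 10.31 and 9.78, against 6.28 and 5.64 in its leaf, so this transcript was at leaf level in E. grandis clone B. In E. globulus clones A and B it stood 1.25 and 1.37 above the leaf mean. It was the 1 transcript whose xylem arrays overlapped those of leaf, in E. grandis clone B.

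LYPTUS00S00003729 was at 12.23 and 11.69 in E. globulus clone A, but at 10.54 and 9.77 in E. globulus clone B and 10.70 and 9.37 in E. grandis clone B. Leaf had 8.84 and 9.11, and clone A xylem of E. grandis 13.61 and 13.69. LYPTUS00S00016864 and LYPTUS00S00002412 were under 2 log2 units in E. globulus clone B alone, at 1.99 and 1.84 above leaf. In E. globulus clone A they stood 3.08 and 2.23 above leaf, and in E. grandis clone B 3.13 and 2.67.

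Relative to E. grandis clone A xylem, the transcripts had a median difference of -0.26 log2 units in E. globulus clone A, -0.58 in E. globulus clone B and -0.33 in E. grandis clone B. Lower values elsewhere follow in part from choosing transcripts that were high in clone A, so these medians are not tested. Levels within 1 log2 unit of clone A xylem were found for 110, 106 and 124 transcripts in these clones, which is 67.5%, 65% and 76.1% of them. Of all features 86.9%, 88.3% and 93.4% were that close. Among the 4 xylem groups the highest mean was in E. globulus clone A for 48 transcripts, E. globulus clone B for 2, E. grandis clone B for 39 and E. grandis clone A for 74. With clone A of E. grandis left out, it was in E. globulus clone A for 79, E. globulus clone B for 7 and E. grandis clone B for 77. Of all features 30.6%, 33.5% and 35.9% were highest in these clones.

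The range of the transcripts over the 6 xylem arrays outside the choice had a median of 1.40 log2 units, against 0.862 over all features, and 34 (20.9%) ranged over more than 2 log2 units, against 3.64% of all features. The SD between ramets, pooled over the 3 clones, had a median of 0.395 for the transcripts and 0.271 for all features. The part of brightness in this was not tested.

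LYPTUS00S00014662 was the steadiest, at 14.64 and 14.65 in E. globulus clone A, 14.59 and 14.75 in E. globulus clone B and 14.93 and 14.84 in E. grandis clone B. Its range over these arrays was 0.34, and its leaf values were 8.94 and 7.61. LYPTUS00S00017089, also with a range of 0.34, lay between 13.45 and 13.79 on the 6 arrays, against 6.84 and 6.96 in leaf. Both thus stood at a nearly constant high level in xylem of 3 clones and 2 species.

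The brightest were LYPTUS00S00000006 and LYPTUS00S00007204. LYPTUS00S00000006 was at 15.64 and 15.45 in E. globulus clone A, 15.16 and 15.29 in E. globulus clone B and 15.01 and 14.88 in E. grandis clone B. Clone A xylem of E. grandis was lower, at 14.39 and 12.94, although the transcript was chosen there, and leaf was at 8.06 and 7.29. LYPTUS00S00007204 lay between 14.44 and 15.50 on the 6 arrays and at 8.33 and 7.33 in leaf.

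**Figure D3:**
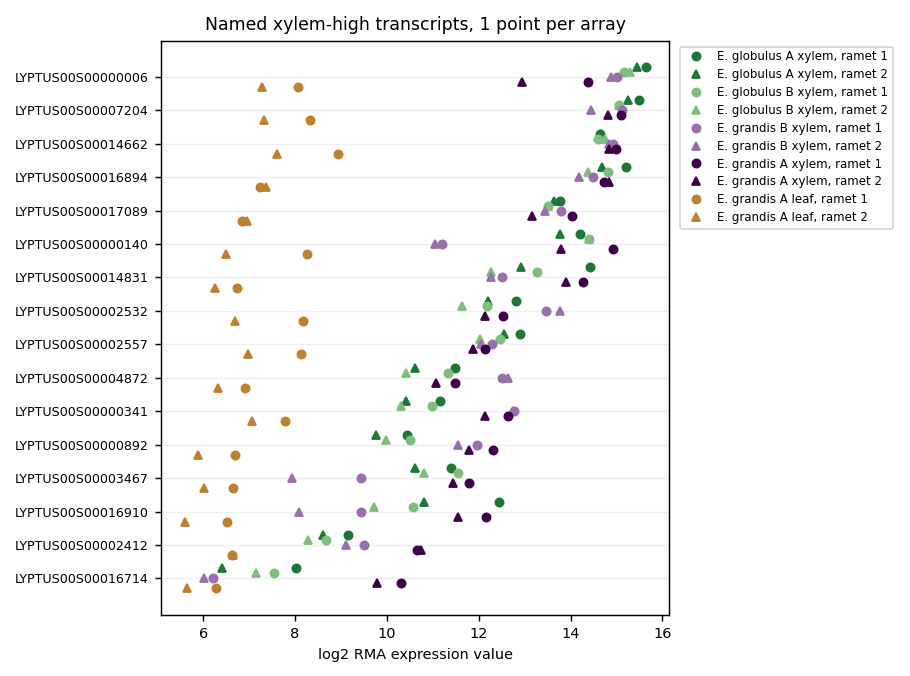
Log2 RMA expression values of the transcripts named in the text by the fixed rule, 1 point per array, coloured by group, with circles for ramet 1 and triangles for ramet 2. The brown leaf points lie to the left of every xylem point of the same transcript, except for LYPTUS00S00016714 in the bottom row.

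E. globulus was set against E. grandis clone B, which took no part in the choice. The question was how far these transcripts keep their xylem level between these clones. All E. globulus arrays had lower array numbers than all E. grandis arrays, so species and array number cannot be told apart. How well the probes match each species was not tested. Within 1 log2 unit were 131 of the 163, comparing the mean of the E. globulus clones with E. grandis clone B, as were 95.2% of all features. In limma, with Benjamini-Hochberg adjustment over all features, 9 transcripts were higher and 8 lower in E. globulus. These 17 are 10.4% of the 163, against 3.59% of all features called (1.86% higher and 1.73% lower). With dim features left out, which removed 1 of the 163, 25 transcripts were called, 15.3% of the 163, against 7.05% of the 11831 features tested. The median difference of the transcripts was -0.14 log2 units, against -0.02 over all features, and it was 0.03 without ramet 1 and -0.31 without ramet 2 of E. grandis clone B.

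These tests measure differences against the scatter of ramets within genotypes and compare these 3 clones, not the species. The ramet numbers paired the arrays in their deviations (values under processing). With ramet number as a block, 28 transcripts were higher and 52 lower, 49.1% of the 163, against 16.4% of all features (8.42% higher and 7.99% lower). All 17 were also called in that fit. The standard error of the difference had a median of 0.278 for the transcripts and 0.238 for all features.

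The 9 higher transcripts differed by 1.53 to 3.07 log2 units (median 1.78) and the 8 lower ones by -0.97 to -2.05 (median -1.43). All 9 were still at least 2 log2 units above leaf in E. grandis clone B, and all 8 in both E. globulus clones. A difference of 4 log2 units from leaf was kept there by 1 of the 9 and 3 of the 8.

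**Figure D4:**
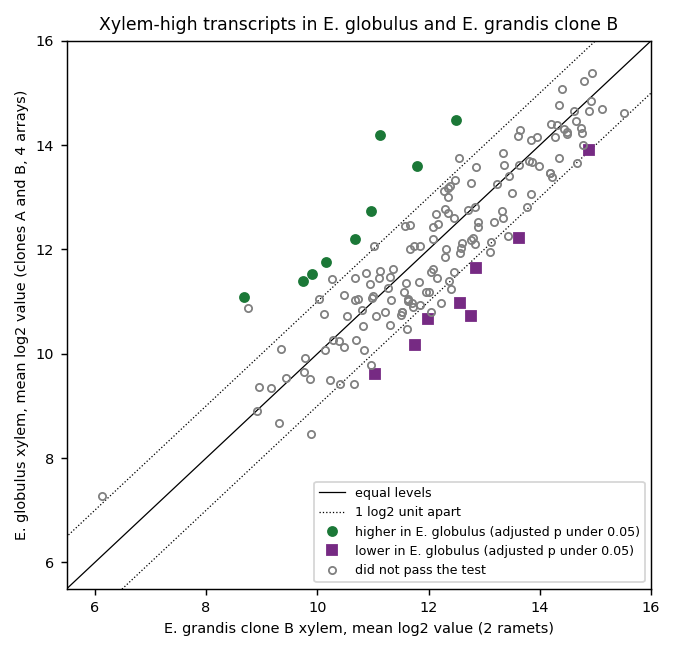
Mean log2 value of each of the 163 transcripts in E. globulus xylem (4 arrays, vertical axis) and in E. grandis clone B xylem (2 arrays, horizontal axis). Filled symbols passed the limma test at an adjusted p under 0.05, with 9 above and 8 below the line of equal levels. Most open circles lie within the dotted lines, 1 log2 unit to either side.

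LYPTUS00S00000140 was at 14.20 and 13.77 in E. globulus clone A and 14.39 and 14.40 in E. globulus clone B, against 11.19 and 11.05 in E. grandis clone B. The E. globulus arrays lay well above those of E. grandis clone B without overlap, by 3.07 log2 units (SE 0.216, limma adjusted p 0.000308, 3.2e-08 to 0.00737 over the alternatives that compare these arrays in the per-array files, as in all such ranges below). Clone A xylem of E. grandis was at 14.92 and 13.80, closer to E. globulus than to E. grandis clone B. Taken singly, E. globulus clone A was higher by 2.86 and clone B by 3.28 (limma adjusted p 0.00123 and 0.000605).

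LYPTUS00S00003467 was at 11.39 and 10.62 in E. globulus clone A and 11.56 and 10.81 in E. globulus clone B, against 9.43 and 7.92 in E. grandis clone B. It was higher in E. globulus by 2.42 log2 units (SE 0.425, limma adjusted p 0.0189, 1.23e-06 to 0.146 over the alternatives). Its ramets in E. grandis clone B were far apart, and without ramet 2 of that clone the limma adjusted p was 0.146. Clone A xylem of E. grandis again lay with E. globulus, at 11.79 and 11.45.

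LYPTUS00S00000341 was lower in E. globulus, at 11.16 and 10.41 in clone A and 10.99 and 10.30 in clone B, against 12.77 and 12.75 in E. grandis clone B. The difference was -2.05 log2 units (SE 0.285, limma adjusted p 0.00683, 4.45e-06 to 0.081 over the alternatives). Without ramet 1 or 2 of E. grandis clone B the limma adjusted p was 0.081 and 0.0672. Here clone A xylem of E. grandis, at 12.64 and 12.14, lay with E. grandis clone B.

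LYPTUS00S00004872 was at 11.48 and 10.62 in E. globulus clone A and 11.34 and 10.42 in E. globulus clone B, against 12.50 and 12.64 in E. grandis clone B. The difference was -1.60 log2 units (SE 0.325, limma adjusted p 0.0324, 0.000118 to 0.225 over the alternatives). Clone A xylem of E. grandis was at 11.48 and 11.07, closer to E. globulus. Its call was lost without ramet 1 or 2 of E. grandis clone B or ramet 2 of E. globulus clone B (limma adjusted p 0.209, 0.225 and 0.0792).

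Over the 17 called transcripts, clone A xylem of E. grandis was nearer to E. globulus for 7 of the 9 higher and 2 of the 8 lower ones. It was nearer to E. grandis clone B for 2 of the higher and 6 of the lower ones. Because clone A was chosen to be high, this describes the 17 and is no test of species or clone.

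The count of calls depended on single arrays. E. grandis clone B ramet 2 was the only one of the 6 arrays in the later series, and without it 1 transcript was called (0.542% of all features), as with the array series as a block, since the fits are then the same. Without E. grandis clone B ramet 1 there were 4 calls (0.35% of all features), and without E. globulus clone B ramet 2 there were 9 (1.7%). Without ramet 1 or 2 of E. globulus clone A there were 50 and 40 (7.22% and 11% of all features). E. globulus arrays all above both arrays of E. grandis clone B were found for 22 of the 163 transcripts (12.6% of all features) and all below for 49 (14.8% of all features).

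Each E. globulus clone was also set against E. grandis clone B on its own. In E. globulus clone A, 10 transcripts were higher and 6 lower, 9.82% of the 163 against 3.42% of all features (2.05% higher and 1.37% lower), and 77 (47.2%, against 17.9%) with ramet number as a block. In E. globulus clone B, 5 were higher and 4 lower, 5.52% against 1.39% (0.551% higher and 0.841% lower), and 65 (39.9%, against 11.7%) with the block. The comparisons share the E. grandis clone B arrays. Without ramet 1 or 2 of those, 5 and 1 transcripts were called in E. globulus clone A (0.444% and 0.486% of all features) and 2 and 1 in E. globulus clone B (0.168% and 0.238%). Without ramet 2 of E. globulus clone A its own count was 43 (16.6% of all features), and without either of its ramets that of clone B was 34 (5.29%). Without ramet 1 or 2 of E. globulus clone B its own count was 2 and 1 (0.383% and 0.336%). Of the 17 transcripts called for the mean of the clones, 14 were called in clone A, 8 in clone B and 7 in both.

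LYPTUS00S00016910 was higher in E. globulus clone A. It was at 12.44 and 10.81 there, against 9.43 and 8.09 in E. grandis clone B, a difference of 2.86 log2 units (SE 0.583, limma adjusted p 0.0338, 1.05e-06 to 0.209 over the alternatives). In E. globulus clone B it was at 10.57 and 9.73, and the difference of 1.39 did not pass the test (limma adjusted p 0.359). This transcript also had the widest range over the 6 arrays, 4.35 log2 units. Without ramet 1 of E. globulus clone A its limma adjusted p was 0.053, and without ramet 1 or 2 of E. grandis clone B 0.0556 and 0.209.

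LYPTUS00S00000892 was at 10.43 and 9.77 in E. globulus clone A, against 11.97 and 11.54 in E. grandis clone B, a difference of -1.65 log2 units (SE 0.315, limma adjusted p 0.027, 4.76e-05 to 0.197 over the alternatives). In E. globulus clone B it was at 10.50 and 9.99, and the difference of -1.51 did not pass the test (limma adjusted p 0.061). LYPTUS00S00002532 was at 12.19 and 11.63 in E. globulus clone B, against 13.47 and 13.78 in E. grandis clone B, a difference of -1.72 log2 units (SE 0.307, limma adjusted p 0.0341, 0.000259 to 0.307 over the alternatives). In E. globulus clone A it was at 12.82 and 12.20, and the difference of -1.12 did not pass (limma adjusted p 0.0958). Both lost their calls without either ramet of E. grandis clone B, with limma adjusted p of 0.197 and 0.0948 for LYPTUS00S00000892 and 0.189 and 0.243 for LYPTUS00S00002532. LYPTUS00S00002532 also lost it without ramet 1 or 2 of E. globulus clone B (0.0851 and 0.307).

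The E. globulus clones were compared with each other, both being outside the choice. In limma 0 of the 163 transcripts passed (0.00934% of all features did), and 17 (10.4%) had an unadjusted p under 0.05, as had 7.38% of all features. Between the clones 151 transcripts were within 1 log2 unit. Clone B minus clone A had a median of -0.34 log2 units over the transcripts, against 0.05 over all features, and 141 of the 163 (45.5% of all features) had a negative difference.

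The size of that shift depended on single arrays. Leaving out ramet 1 or 2 of clone B gave medians of -0.51 and -0.19. It was -0.03 when ramet 1 of clone A, the array with the widest spread of values, was left out. Without ramet 2 of clone A it was -0.65, against 0.05 over all features in that fit. After quantile normalisation the median was -0.15. With ramet number as a block 0 transcripts were higher and 15 lower in clone B, 9.2% of the 163, against 3.47% of all features (0.925% higher and 2.55% lower).

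Within clones, the transcripts were brighter in ramet 1 than in ramet 2 in every group. The median difference, ramet 1 minus ramet 2, was 0.66 log2 units in E. globulus clone A, 0.35 in E. globulus clone B, 0.38 in E. grandis clone B, 0.34 in E. grandis clone A xylem and 0.61 in leaf. Ramet 1 was the brighter for 157, 128, 140, 137 and 134 of the 163 transcripts in these groups. Of all features 49.1%, 45%, 49.7%, 45.9% and 58.5% were brighter in ramet 1. The median over all features was near 0 in the xylem groups, from -0.04 to -0.00, and 0.16 in leaf.

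The spread of the arrays moved with this. The interquartile range of all log2 values was wider in ramet 1 in xylem of E. globulus clone A (2.84 against 2.47), E. globulus clone B (2.51 against 2.42), E. grandis clone B (2.57 against 2.41) and E. grandis clone A (2.60 against 2.47). In leaf, where these transcripts are dim, it was narrower in ramet 1 (2.11 against 2.62). After quantile normalisation, which makes the spread equal, the median differences were 0.38, 0.27, 0.26, 0.20 and 0.46, still positive in all 5 groups. The labels do not say that trees of the same ramet number share anything beyond the number, except that each clone A leaf shares its tree with a xylem array. The part of the array spread in these differences was not tested.

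**Figure D5:**
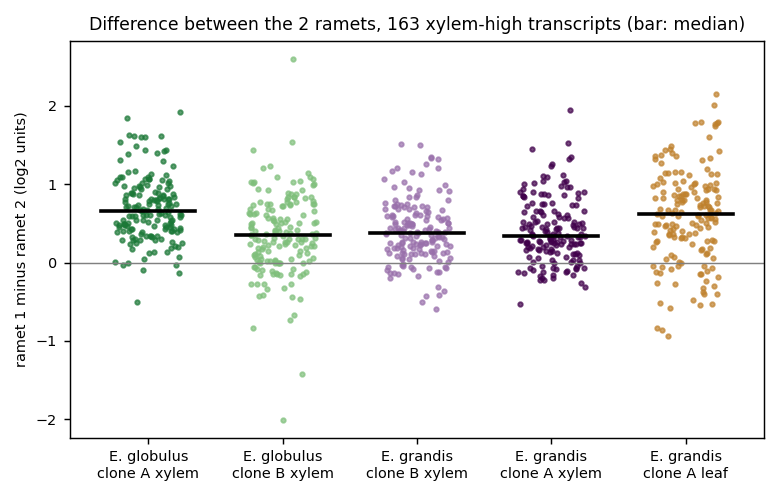
Log2 value in ramet 1 minus that in ramet 2 for each of the 163 transcripts, by group, with the median as a bar. The bar lies above 0 in all 5 groups, from 0.34 in E. grandis clone A xylem to 0.66 in E. globulus clone A.

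Over the 163 transcripts, the correlation between ramets of 1 clone had a median of 0.962 (0.948 to 0.977, 4 pairs of xylem arrays). Arrays of the E. globulus clones correlated with each other at 0.925 to 0.962 (4 pairs). The lowest of these, clone A ramet 1 with clone B ramet 2, was below every ramet pair. Arrays of the E. grandis clones, of which clone A chose the transcripts, correlated at 0.747 to 0.838 (4 pairs). Between the species the values were 0.785 to 0.876 (16 pairs). Every E. grandis pair includes a clone A array, whose values took part in the choice, so its range is not compared with that between species. Over all features the median was 0.977 between ramets and 0.924 between the species (0.886 to 0.954). The E. grandis clones correlated at 0.933 to 0.959 over all features, and the E. globulus clones at 0.914 to 0.981. Transcripts are not independent replicates, and those chosen span a narrower range of brightness than all features, so the values describe the arrays only.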

How the data were processed

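RNA levels were measured on 10 arrays, 1 per sample. The authors deposited intensities on a linear scale, RMA expression values per feature in each of 2 blocks, per the file headers. RMA is named in the submitters' processing notes, and its version and settings are not given in the sources used here.

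Log2 values were taken and the 2 blocks averaged, with no filter and no further normalisation. Members and lists were chosen with earlier results of these data known. The 6 xylem arrays outside the rule were fitted with 1 mean per clone (3 residual degrees of freedom) in limma 3.58.1 under R 4.3.3. The fit was run on simulated data with independent noise on each array. That simulation had no deviations shared by arrays of the same ramet number, so it does not test the calls against these. P-values were adjusted by Benjamini-Hochberg over 21413 features, with a threshold of 0.05. Precision is limited by 2 arrays per group.

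Named transcripts are the 2 most positive and 2 most negative called differences per comparison whose arrays do not overlap. The 2 with the largest tissue difference, the smallest and largest range, the highest and lowest mean over the 6 arrays, and the 2 on each side of the rule's limit were added.

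Ramet numbers were checked by correlating ramet 1 minus ramet 2 across features between clones. The values of 0.642, 0.426 and 0.517 were all above 0.1, the limit used here, so calls with ramet number as a block stand beside the results. This check cannot show that the numbers pair the trees, since arrays of ramet 1 also had the wider spread in every xylem group. The part of that spread was not tested, and the labels name nothing shared between clones.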

Additional observations from a re-analysis of the deposited data

How the results depend on the processing

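The number of transcripts was 163 or 164 from single blocks, 158 after quantile normalisation, and 222 to 230 when only 1 tree had to pass. A limit of 3 log2 units gave 368 and one of 5 gave 64. The median level in the other xylem clones was 11.93 to 12.01 from single blocks or after quantile normalisation. The counts 4 log2 units above leaf then were 126 to 129 in E. globulus clone A, 109 to 117 in E. globulus clone B and 124 to 127 in E. grandis clone B. With the series value table as named, the rule gave 0 transcripts, the median level was 10.52, and 0 transcripts were 4 log2 units above leaf in E. globulus clone A, E. globulus clone B or E. grandis clone B. With those columns 0 transcripts were called in each comparison, and 6 differences of named transcripts turned sign, none called. These were -2.32 (LYPTUS00S00000140) and -2.33 (LYPTUS00S00003467) for the mean of the E. globulus clones, -2.84 (LYPTUS00S00000140) and -3.18 (LYPTUS00S00016910) for clone A, and -1.79 (LYPTUS00S00000140) and -1.53 (LYPTUS00S00003467) for clone B. Under the table's names E. globulus clones A and B each hold 1 leaf file.

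For the mean of the E. globulus clones against E. grandis clone B, 17 transcripts became 26 with all 8 xylem arrays, 80 with the ramet number as a replicate block, 1 with the array series as a block, and 1 to 50 without single arrays. For E. globulus clone A, 16 became 77 with the replicate block, 1 with the series block, and 1 to 43 without single arrays. For E. globulus clone B, 9 became 15 without dim features, 14 with all 8 arrays, 65 with the replicate block, 1 with the series block, and 1 to 34 without single arrays. Between the E. globulus clones, 0 became 15 with the replicate block and 0 to 24 without single arrays. Over all features the 769 calls for the mean of the clones became 3512, 116, 1159 and 577 with the replicate block, the series block, 8 arrays and 10 arrays. For E. globulus clone B, 9.2% of the 163 were called without dim features, against 3.14% of all features tested. With all 8 arrays its shares were 8.59% and 2.17%. The fit of species over 8 arrays with clone as a random block is not read, because it sets the E. grandis clone A xylem arrays, high by choice, on 1 side. Where an array was left out, the lone array of its group was assumed to vary like the other groups. The 24 between the E. globulus clones came without ramet 2 of clone A, where all features were called at a similar share. Nothing about the transcripts is read from that count. No named difference turned sign in the other settings on the per-array files. The causes of these changes were not tested. Background correction on raw signals was not run, since the files hold RMA values only.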

Other observations

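The transcripts were unevenly spread over the feature numbers. Of the 163, 70, 52, 16 and 25 fell in 4 nearly equal bins of features ordered from the lowest to the highest number. Over all features, the median level on the 6 xylem arrays outside the choice in the same bins was 8.57, 8.04, 7.46 and 7.38. How the numbers were given is not stated in the sources used here. In 8 cases the next feature number was also among the 163, and whether such neighbours stand for related transcripts was not analysed here.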
